A study of Mus musculus with 24 samples.

Results

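Bone morphogenetic protein (BMP) signalling and the Id genes were followed in the left lung lobe of newborn mice that lacked *Vangl2* or *Ror2* in the distal epithelium. The set holds 9 genes of the 23420 in the expression tables, taken by symbol: the ligand genes *Bmp2*, *Bmp4* and *Bmp5*, the receptor gene *Bmpr2*, the antagonist gene *Grem1*, the target genes *Id1*, *Id2* and *Id3* and the inhibitory Smad gene *Smad6*. All 9 were found in every table, and all 9 passed the filter on low values in every comparison. RNA-Seq was performed on 24 lungs in 8 groups of 3, with mutants and controls at postnatal day (P) 2 and P5. The mutants carried *Sox9Cre* with homozygous floxed *Vangl2* (*Sox9Cre; Vangl2f/f*) or floxed *Ror2* (*Sox9Cre; Ror2f/f*), and each mutant had its own controls at each age, whose genotype is given as WT and whose titles read Control(Vangl1/2) and Control(Ror2). The labels name no agent for any group. *Sox9Cre* recombines in the SOX9-positive distal epithelium, so the other cells of the lobe keep the gene, and the lobe was sequenced whole, as a mixture of epithelium, mesenchyme, vessels and blood. The genotype entries of the *Vangl2* mutants at P5 and of the *Ror2* mutants at P2 name the other gene, and the titles were followed here.

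BMPs are secreted ligands of the TGF-beta superfamily. They bring type II receptors such as BMPR2 together with type I receptors, which phosphorylate SMAD1, SMAD5 and SMAD9, and these enter the nucleus with SMAD4 and switch on targets that include the Id genes and *Smad6*. SMAD6 in turn damps the receptors, and Id proteins, which lack a DNA-binding region, hold E proteins such as TCF3 away from DNA. In the developing lung BMP4 is made by the distal epithelium and the mesenchyme, gremlin 1 binds and blocks BMPs, and BMPR2 is abundant in the endothelium.

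The sequences around the start sites of *Id2*, *Id3* and *Smad6* are shown because the deviations of these target genes were correlated over all lungs, and that of *Bmp5* because it was lower in every mutant group. They are RefSeq sequences of the GRCm38.p6 build, which covered 7 of the 9 genes but not *Bmp2* and *Id1*. Each runs 5′ to 3′ on the strand of the gene, from 250 bases before the start to 4 bases after it. Capitals mark GGCGCC and GTCT or its complement AGAC, known as sequences that Smads bind, and GTCTAGAC, a palindrome that joins the last pair.
*Id2* (chr12:25096089-25096342, minus strand): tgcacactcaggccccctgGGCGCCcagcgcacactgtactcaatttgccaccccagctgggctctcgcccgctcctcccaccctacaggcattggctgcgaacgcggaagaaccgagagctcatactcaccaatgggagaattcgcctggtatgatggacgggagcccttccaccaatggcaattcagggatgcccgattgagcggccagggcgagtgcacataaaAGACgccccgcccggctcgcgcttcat
*Id3* (chr4:136143572-136143825, plus strand): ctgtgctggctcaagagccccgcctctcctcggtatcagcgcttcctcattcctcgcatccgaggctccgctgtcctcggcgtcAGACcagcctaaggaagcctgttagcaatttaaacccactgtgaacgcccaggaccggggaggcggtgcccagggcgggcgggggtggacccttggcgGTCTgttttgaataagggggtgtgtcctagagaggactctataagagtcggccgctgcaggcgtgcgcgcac
*Smad6* (chr9:64022056-64022309, minus strand): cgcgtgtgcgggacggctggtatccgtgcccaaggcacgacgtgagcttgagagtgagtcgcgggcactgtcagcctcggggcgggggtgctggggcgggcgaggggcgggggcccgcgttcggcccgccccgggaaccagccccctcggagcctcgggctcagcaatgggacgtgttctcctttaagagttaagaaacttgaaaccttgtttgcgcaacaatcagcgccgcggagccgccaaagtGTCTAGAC
*Bmp5* (chr9:75775115-75775368, plus strand): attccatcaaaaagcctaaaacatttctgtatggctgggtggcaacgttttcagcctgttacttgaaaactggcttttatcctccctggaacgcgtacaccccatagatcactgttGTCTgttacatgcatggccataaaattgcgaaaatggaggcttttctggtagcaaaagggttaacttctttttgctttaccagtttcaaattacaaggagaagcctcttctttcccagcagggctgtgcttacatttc
The window of *Id2* holds GGCGCC once, beginning 231 bases before the start, and GTCT or AGAC once. That of *Id3* holds GTCT or AGAC at 166 and 68 bases before the start and no GGCGCC. In *Smad6* the palindrome GTCTAGAC lies across the start used by the table, which is 26 bases inside the end of the gene in the gene table, and the 4 bases after the start were included after this was seen. *Bmp5* holds GTCT or AGAC once, 134 bases before its start, and no GGCGCC. In 32851 windows of 254 bases from all genes, searched on both strands, GGCGCC was present in 9.68%, GTCT or AGAC in 83.3% and GTCTAGAC in 0.17%.

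On the GRCm38.p6 build, *Bmp5* (gene 12160) spans chr9:75775365-75900316 and *Smad6* chr9:63953076-64022085. *Bmp4* lies at chr14:46383525-46390669 and *Bmpr2* at chr1:59764279-59878081. *Bmp2* (chr2:133552159-133562896), *Grem1* (chr2:113748675-113758648) and *Id1* (chr2:152736251-152737410) share a chromosome, and *Id2* (chr12:25093799-25096092) and *Id3* (chr4:136143822-136145392) lie apart.

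In the 21 lungs whose whole reads could be recovered, between 13823693 and 21546673 reads fell on genes. The lowest number is that of control replicate 1 of *Ror2* at P5, and without this lung the fewest were 16178031. Control replicate 1 of the *Ror2* comparison at P5 lacks reads over part of the genome: 100% of otherwise detected genes are listed at 0 on chromosomes 6, 8 and X, 99.9% on 7 and 9 and 71.7% on 5, against 0.0217% elsewhere. That lung was treated as missing for genes on chromosomes 5 to 9 and X, so *Bmp5* and *Smad6* have 2 controls there. *Vangl2* was at 249, 302 and 281 normalized counts in its controls and 241, 224 and 173 in its mutants at P2, and at 369, 314 and 292 against 170, 148 and 166 at P5 (log2 fold change -0.39 and -1.0, adjusted p = 0.241 and 0.0604, limma). *Ror2* was at 451, 581 and 520 against 479, 349 and 366 at P2 and at 526, 368 and 597 against 362, 440 and 521 at P5 (-0.38 and -0.16, adjusted p = 0.25 and 0.692), with overlap at both ages. *Xist* exceeded 1000 normalized counts in 1 of 3 controls and 2 of 3 mutants for *Vangl2* at P2, in 3 of 3 and 2 of 3 at P5, in 1 of 3 and 1 of 3 for *Ror2* at P2 and in 1 of the 2 controls read and 0 of 3 mutants at P5, so sex was not balanced in every comparison. The labels do not say which lungs share a litter, and p-values measure the spread between these lungs.

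*Bmp5*, which encodes a BMP made by lung mesenchyme, stood apart from the other genes of the set. It was lower in every mutant lung than in every control lung of the same comparison, at both ages and for both mutants, with a mutant level of 0.519 to 0.612 of the control level. The other 8 genes showed no such order in all 4 comparisons, and the log2 fold changes of the Id genes and *Smad6* lay between -0.22 and 0.27. Values are normalized counts: the authors scaled the reads on a gene by the size factor of the lung, separately in each table, so levels of different tables stand side by side and were not tested against each other.

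**Figure D1:**
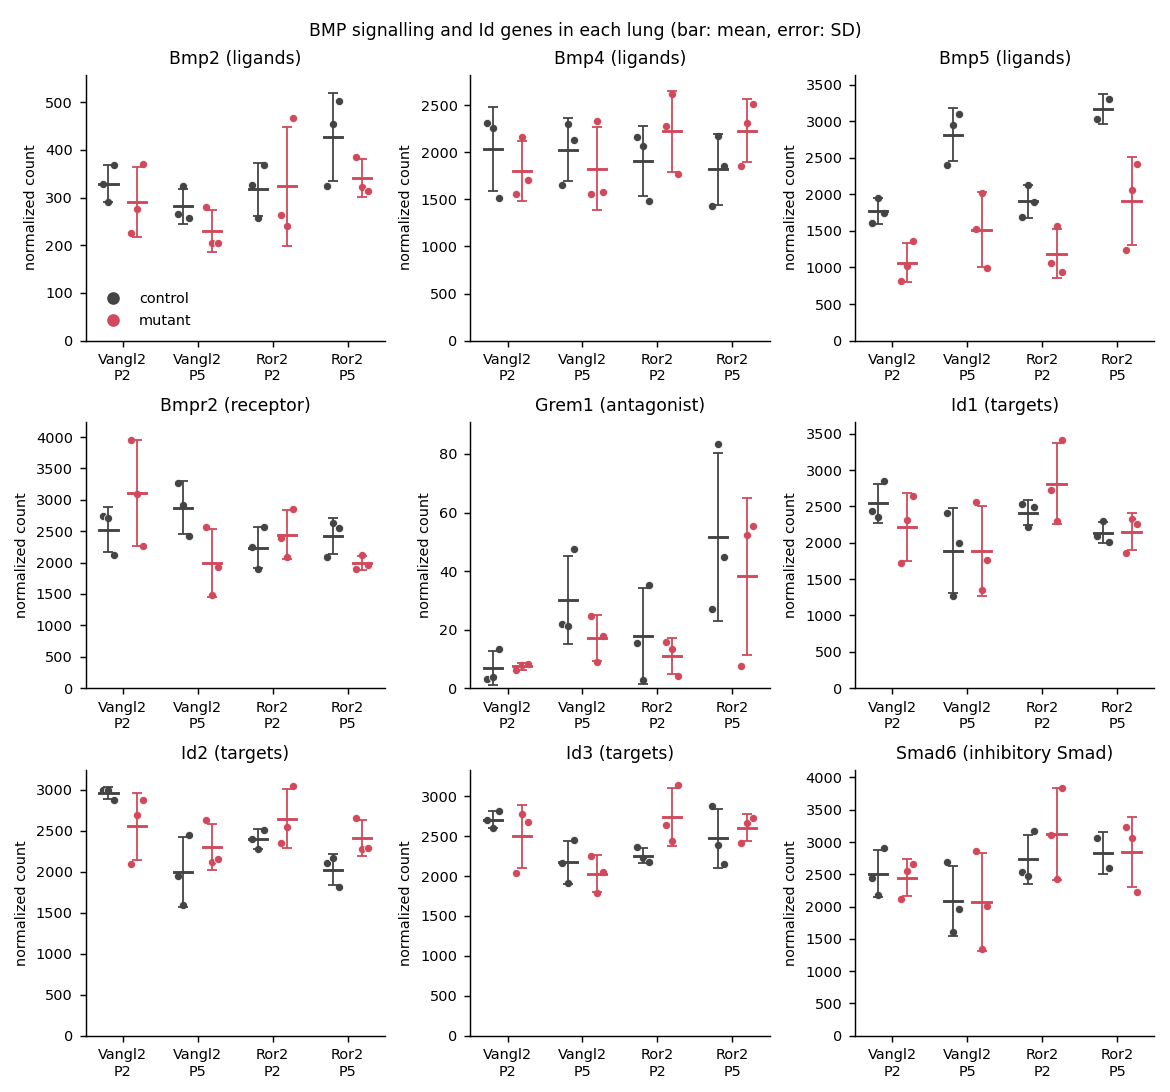
Normalized counts (vertical axes) of the 9 genes in each lung (points), with the mean (horizontal line) and SD (error bar) of each group, controls in dark grey and mutants in red, for the 4 comparisons on the horizontal axis. In the panel of *Bmp5* all mutants lie below all controls of the same comparison, whereas the groups overlap in most other panels.

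In the *Vangl2* comparison at P2, *Bmp5* was at 1608, 1957 and 1746 normalized counts in the controls and at 822, 1022 and 1356 in the mutants. All 3 mutants lay below all 3 controls, as for 14.9% of the 17448 genes tested. The log2 fold change was -0.76 ± 0.18 (SE), with an adjusted p of 0.0616 (limma, Benjamini-Hochberg over all genes). Mutant replicate 3 was the highest mutant, and without it the adjusted p was 0.0109. Leaving out that lung gave 2333 called genes of all 17146 tested, in place of 626. Over all alternatives, including each lung left out, the adjusted p lay between 0.00582 and 0.244.

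At P5 the *Vangl2* controls were at 2403, 2945 and 3104 and the mutants at 1520, 2024 and 999 normalized counts of *Bmp5*. The groups did not overlap, which was so in this direction for 12.5% of genes. The difference was -0.95 ± 0.25 on the log2 scale, with an adjusted p of 0.117. In this table lungs that carry 1 number tended to deviate alike over all genes, but for *Bmp5* only those of replicate 2 did. Its log2 deviations in replicates 1, 2 and 3 were -0.22, 0.07 and 0.15 in the controls and 0.06, 0.48 and -0.54 in the mutants. A limma fit blocked on the replicate number gave *Bmp5* an SE of 0.21 and an adjusted p of 0.0381. In that paired fit 8.95% of all genes were called and 3.48% were called as lower in the mutants. The adjusted p of *Bmp5* ran from 0.0381 to 0.32 over all alternatives.

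For *Ror2* at P2, *Bmp5* was at 1685, 2129 and 1898 normalized counts in the controls and at 1056, 1573 and 938 in the mutants. Again no mutant reached the lowest control, as for 12.2% of genes. The log2 difference was -0.71 ± 0.19 and the adjusted p was 0.203, or 0.0375 without mutant replicate 2, the highest mutant. Leaving out that lung gave 859 called genes of all 17409 tested, in place of 0. Over all alternatives the adjusted p lay between 0.0353 and 0.53.

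For *Ror2* at P5, the 2 controls with values were at 3025 and 3311 and the mutants at 1244, 2062 and 2412 normalized counts of *Bmp5*. The highest mutant lay below the lower control, which happened for 18.3% of the genes that have 2 controls. Here the log2 fold change was -0.79 ± 0.26 and the adjusted p was 0.201. Without mutant replicate 1, the lowest mutant, it was -0.50. The effect turned to 3.09 with the deposited value of 0 for control replicate 1 kept.

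In the exact two-sided permutation test *Bmp5* had p = 0.1 in each comparison of 3 lungs with 3 and p = 0.2 in that of 2 with 3, the smallest values these designs can give. The order seen for *Bmp5* in all 4 comparisons was shared by 129 of the 16723 genes tested in all of them, or 0.771%, and the opposite order, which no gene of the set showed, by 0.724%. The 4 comparisons use separate lungs throughout.

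The differences between the 4 effects of *Bmp5* were small beside their errors. *Vangl2* minus *Ror2* was -0.05 at P2 (95% interval -0.68 to 0.58) and -0.16 at P5 (-1.05 to 0.73), and P5 minus P2 was -0.19 for *Vangl2* (-0.92 to 0.54) and -0.08 for *Ror2* (-0.88 to 0.72). The intervals leave room for differences about as large as the effects themselves.

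A single fit of all 24 lungs, with the mean of the 4 mutant effects as its contrast, was added after the single comparisons had been seen. By this test *Bmp5* fell in the mutants, with a mean log2 fold change of -0.80 ± 0.13 (SE) and an adjusted p of 0.000426. It was the only gene of the set called, where 30.8% of the 16723 genes were called and 15.3% were called as lower. Without *Ror2* P2 mutant replicate 3, *Bmp2* was called as well (adjusted p = 0.047). Every mutant carried *Sox9Cre* while the controls are given as WT, and the part of *Sox9Cre* itself in these effects was not tested.

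The collagen genes of matrix fibroblasts were lower in the same lungs, and with them the sum of a marker list. The summed normalized counts of 8 of their genes (*Col1a1*, *Col1a2*, *Tcf21*, *Fgf10*, *Mfap5*, *Dcn*, *Col13a1* and *Npnt*) were 90521 ± 6148 (SD, n = 3) in the *Vangl2* controls at P2 and 70232 ± 4388 in the mutants, and 117527 ± 4408 against 71590 ± 19117 at P5. For *Ror2* they were 86277 ± 4412 against 67133 ± 11569 at P2. All mutants lay below all controls in these 3 comparisons. At P5 the sum of the 6 genes with values in every *Ror2* lung ranged from 55447 to 68089 in the controls and from 43484 to 57415 in the mutants, with overlap. *Col1a2* and *Mfap5* are not in this last sum.

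Within this list 4, 5, 6 and 5 of the 8 genes had a negative log2 fold change, in the order *Vangl2* P2, *Vangl2* P5, *Ror2* P2 and *Ror2* P5, with medians of -0.04, -0.54, -0.37 and -0.31. *Col1a1* and *Col1a2* made up most of the sum in the *Vangl2* controls at P2, at means of 32819 and 33987. *Col1a1* and *Col1a2*, which encode the chains of type I collagen, had all mutants below all controls in all 4 comparisons, with log2 fold changes of *Col1a1* from -0.97 to -0.43. That order held for 0.771% of the 16723 genes tested in all of them. For *Ror2* at P5 *Col1a2* has 2 controls, where all mutants lay below all controls for 18.3% of such genes. *Tcf21*, a transcription factor gene of lung fibroblasts, had log2 fold changes of 0.39, 0.28 and 0.35 in the first 3 comparisons and -0.25 for *Ror2* at P5. *Dcn*, *Col13a1* and *Npnt* were at 0.34, 0.22 and 0.06 for *Vangl2* at P2. No gene of the list is listed at 0 in every lung, and only *Col1a1* for *Vangl2* at P2 was called (adjusted p = 0.0394).

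Within groups, lungs with more *Bmp5* also had a higher sum of the matrix fibroblast genes. Pearson's r between the log2 deviations from the group mean was 0.80 over 23 lungs (Spearman's rho 0.72), 0.75 without the 2 lungs farthest from the median of the sum, and 0.70, 0.86, 0.85 and 0.84 within the 4 tables. The last value uses the sum without *Col1a2* and *Mfap5*. The gene whose deviations were most like those of *Bmp5*, looked for after its values were seen, was *Mfap4*, which encodes a microfibril protein of the matrix (r = 0.92), followed by *Lhfpl2* (0.91), *Amph* (0.91), *Antxr1* (0.90) and *Serpine2* (0.90). These correlations describe lungs that share a table and its scaling.

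Other cell types differed too. The sum of 8 neutrophil genes was 2988 to 4868 in the *Vangl2* controls at P2 and 9052 to 12057 in the mutants, and 3357 to 4719 against 9508 to 24298 at P5, and that of 6 macrophage genes was also higher in all *Vangl2* mutants. Both sums overlapped for *Ror2*, where the neutrophil sum at P2 was 4941 to 27051 in the controls and 5793 to 7708 in the mutants. The sum of 8 alveolar type I genes was higher in all mutants for *Vangl2* at P2 (112416 to 136692 against 91081 to 111000), for *Ror2* at P2 (101759 to 150180 against 88465 to 96698) and, over 6 genes, for *Ror2* at P5 (59895 to 70638 against 53838 to 55567). That of 5 erythroid genes, of which *Hba-a1* and *Hba-a2* are listed at 0 in every lung of that table, was lower in all *Vangl2* mutants at P2 (1118 to 1640 against 2674 to 5134) and overlapped elsewhere. Sums of 8 myofibroblast and smooth muscle genes were lower in all *Vangl2* mutants at P2, at 38760 to 46992 against 48690 to 60282, and overlapped elsewhere, and this sum had r = 0.55 with *Bmp5* within groups (rho 0.31, 0.27 without the 2 farthest). In a whole lobe, fewer cells of a type and less RNA per cell cannot be told apart, and the part of these cell types in the values of *Bmp5* was not tested.

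**Figure D2:**
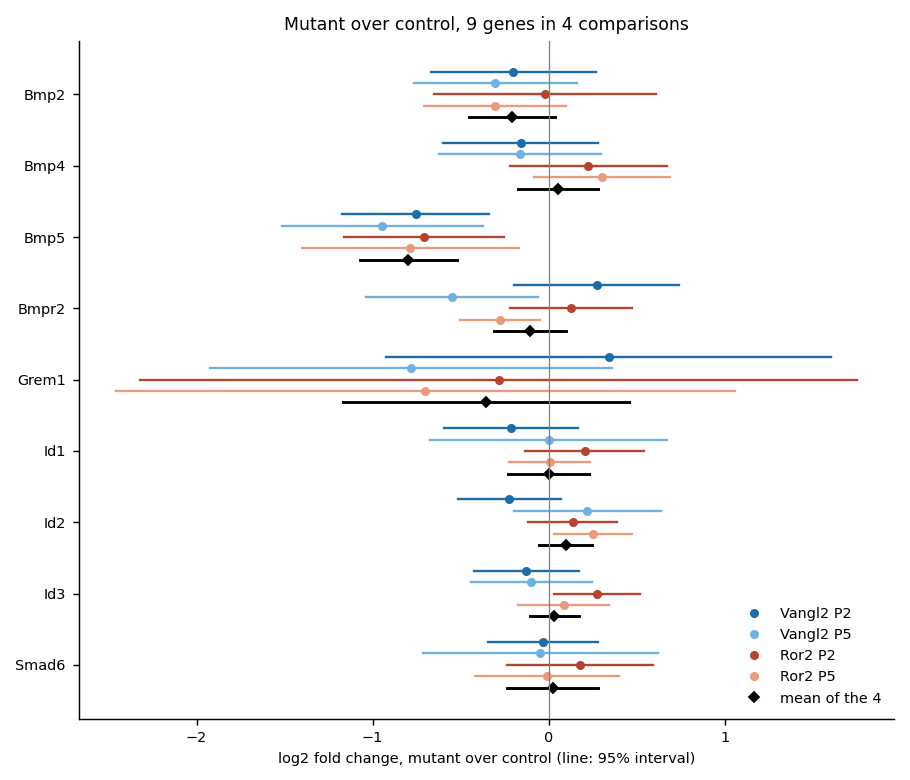
Log2 fold changes, mutant over control (horizontal axis), of the 9 genes (rows) in the 4 comparisons (coloured points) and in the mean of the 4 (black diamonds), with 95% intervals as lines. The intervals of *Bmp5* lie below 0 in each comparison, and those of *Grem1* are the widest.

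The other ligand genes differed less. *Bmp2*, whose product acts in vessels and airways, was at 329, 290 and 368 normalized counts in the *Vangl2* controls at P2 and 225, 276 and 370 in the mutants. At P5 it was at 266, 324 and 257 against 280, 205 and 205. The third mutant was the highest lung at P2, and 1 mutant lay among the controls at P5. For *Ror2* it was at 327, 257 and 368 against 263, 241 and 467 at P2 and at 324, 455 and 503 against 386, 322 and 315 at P5, with overlap at both ages. Its log2 fold changes were -0.20, -0.30, -0.02 and -0.31 and the lowest adjusted p was 0.378. The mean over the 4 comparisons was -0.21 ± 0.12 (SE; adjusted p = 0.187).

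*Bmp4*, a ligand gene of branching and of the distal lung, did not share the order of *Bmp5*. In the *Vangl2* comparisons it was at 2315, 2263 and 1518 normalized counts in the controls and 1554, 2163 and 1702 in the mutants at P2, and at 1653, 2299 and 2126 against 1562, 2337 and 1579 at P5. In the *Ror2* comparisons it was at 2168, 2067 and 1478 against 2284, 2622 and 1769 at P2, and at 1429, 2172 and 1855 against 1858, 2314 and 2515 at P5. Groups overlapped each time. The log2 fold changes were -0.16 at both ages for *Vangl2* and 0.23 and 0.30 for *Ror2*, with adjusted p from 0.364 to 0.713. The difference between *Vangl2* and *Ror2* was -0.38 at P2 (95% interval -1.03 to 0.26) and -0.47 at P5 (-1.08 to 0.15), and neither was called.

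*Bmpr2*, the type II receptor gene whose mutations are known from pulmonary arterial hypertension, did not pass the threshold in any comparison. At P2 the *Vangl2* controls were at 2742, 2714 and 2117 normalized counts and the mutants at 3950, 3095 and 2271. At P5 the controls were at 3267, 2925 and 2426 and the mutants at 2561, 1490 and 1936. The groups overlapped by 1 mutant at each age. The log2 fold change was 0.27 ± 0.20 at P2 and -0.55 ± 0.21 at P5 (adjusted p = 0.461 and 0.220), and the last became 0.0617 when blocked on the number. Without mutant replicate 1 the value at P2 was 0.081, and without mutant replicate 2 that at P5 was -0.36. The effect at P5 minus that at P2 was -0.82 (95% interval -1.52 to -0.13), with an adjusted p of 0.577 (limma).

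In the *Ror2* comparisons *Bmpr2* was at 2243, 1903 and 2562 normalized counts in the controls and 2393, 2084 and 2857 in the mutants at P2. At P5 it was at 2097, 2627 and 2553 against 1905, 2119 and 1966, where the lowest control lay just below the highest mutant. The log2 fold change was 0.13 ± 0.15 at P2 and -0.28 ± 0.10 at P5 (adjusted p = 0.646 and 0.211), and P5 minus P2 was -0.40 (95% interval -0.82 to 0.01). Without mutant replicate 3 the value at P2 was 0.0088.

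The sum of 10 endothelial genes, of which none is listed at 0 in every lung, was lower in all *Vangl2* mutants at P5, at 49371 to 76967 against 85209 to 92157 in the controls, and overlapped in the other comparisons (7 of the genes for *Ror2* at P5). Over 24 lungs the deviations of *Bmpr2* and of the endothelial sum had r = 0.67 (rho 0.69, 0.71 without the 2 farthest, 0.58 to 0.96 within tables). The part of endothelial RNA in the values of *Bmpr2* was not tested.

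*Grem1*, the antagonist gene, was low in every lung. Its normalized counts lay between 2.76 and 83.3 over the 24 lungs with a median of 15.7, and the SD was 55.3% of the mean in the median group. Controls and mutants overlapped in all comparisons. The log2 fold changes were 0.34, -0.78, -0.28 and -0.70, and their 95% intervals together spanned from -2.46 to 1.75. A difference of the size seen for *Bmp5* was not detectable for *Grem1* beside this spread between lungs.

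The Id genes were among the most abundant per length. In the control groups, mean *Id1* lay between 1629 and 2192 normalized counts per kilobase of exon and mean *Id3* between 1702 and 2116. *Id2* (820 to 1214), *Bmp4* (881 to 985), *Smad6* (703 to 953) and *Bmp5* (463 to 829) followed on this scale, and then *Bmpr2* (173 to 223), *Bmp2* (79.4 to 120) and *Grem1* (1.64 to 12.5). The ranges of mean ± SD of *Id1* and *Id3* were apart only in the *Ror2* controls at P2, at 2082 ± 151 and 1765 ± 76.2 per kilobase. Those of *Id2*, *Bmp4* and *Smad6* overlapped in 3 control groups, and *Id2* was above *Smad6* in the *Vangl2* controls at P2 (1214 ± 28.7 and 845 ± 123).

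*Id1*, a direct target of BMP Smads, was at 2433, 2349 and 2848 normalized counts in the *Vangl2* controls at P2 and 1716, 2308 and 2636 in the mutants. At P5 the controls were at 2412, 1263 and 1994 and the mutants at 2554, 1345 and 1764. Replicate 1 was the highest and replicate 2 the lowest in both genotypes at this age. The log2 fold change of *Id1* there was -0.00098 with an SE of 0.29, and the SE became 0.10 with the number as a block. For *Ror2* it was at 2535, 2214 and 2498 against 2726, 2305 and 3412 at P2 and at 2096, 2295 and 2015 against 1866, 2329 and 2263 at P5, with overlap in each. The effects at P2 were -0.21 ± 0.16 for *Vangl2* and 0.20 ± 0.14 for *Ror2*, and that for *Ror2* at P5 was 0.01 ± 0.10. With TMM scaling both values at P5 took the other sign, at 0.012 and -0.00079. The 95% interval of the mean over the 4 comparisons was -0.23 to 0.23.

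*Id2*, which is expressed in distal lung progenitors, was at 3002, 2999 and 2879 normalized counts in the *Vangl2* controls at P2 and 2097, 2697 and 2880 in the mutants, of which 1 lay just above the lowest control. At P5 it was at 1949, 1598 and 2453 against 2633, 2125 and 2156. For *Ror2* at P2 it was at 2399, 2276 and 2515 against 2352, 2542 and 3048. Groups overlapped in these 3 comparisons. For *Ror2* at P5 the controls were at 2102, 2164 and 1809 and the mutants at 2660, 2273 and 2292, all above the controls, as for 13.7% of genes with 3 controls. The log2 fold changes were -0.22, 0.22, 0.14 and 0.25, the last with an SE of 0.10 and an adjusted p of 0.231.

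*Id3*, which is often induced together with *Id1*, was at 2697, 2602 and 2814 normalized counts in the *Vangl2* controls at P2 and 2043, 2776 and 2673 in the mutants, and at 2162, 1910 and 2452 against 2257, 1790 and 2045 at P5. For *Ror2* at P2 the controls were at 2364, 2228 and 2175 and the mutants at 2635, 2440 and 3139. Here all mutants lay above all controls, as for 13.4% of genes, with a log2 fold change of 0.27 ± 0.10 and an adjusted p of 0.235. For *Ror2* at P5 it was at 2877, 2391 and 2151 against 2419, 2668 and 2734, and its log2 fold change was 0.08 there and -0.13 and -0.10 for *Vangl2*.

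*Smad6*, the feedback inhibitor, was at 2440, 2185 and 2904 normalized counts in the *Vangl2* controls at P2 and 2124, 2557 and 2666 in the mutants. At P5 it was at 2690, 1614 and 1958 against 2858, 1340 and 2012, with replicate 1 highest and replicate 2 lowest in both genotypes, as for *Id1*. The log2 fold change was -0.05 there, with an SE of 0.29 that became 0.11 with the number as a block. For *Ror2* it was at 2542, 2478 and 3170 against 3108, 2420 and 3837 at P2, and at 3065 and 2601 in the 2 controls with values against 3238, 3068 and 2220 at P5. Its log2 fold changes lay between -0.05 and 0.18, and the 95% interval of the mean over the 4 comparisons was -0.23 to 0.28.

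The effects on the target genes at P2 were compared between the mutants. The *Vangl2* effect minus the *Ror2* effect at P2 was -0.42 for *Id1* (95% interval -0.93 to 0.10), -0.36 for *Id2* (-0.74 to 0.02), -0.40 for *Id3* (-0.77 to -0.02) and -0.21 for *Smad6* (-0.73 to 0.32). None was called, with an adjusted p of 0.946 for each Id gene (limma). Over all 4 differences of effects, 0 genes of the set were called, where 0%, 0.0118%, 0% and 0% of all genes were, in the order *Vangl2* minus *Ror2* at P2 and at P5 and P5 minus P2 for *Vangl2* and for *Ror2*. At an unadjusted p under 0.05, only *Id3* passed in the first and *Bmpr2* in the third, where 4.6%, 4.73%, 8.45% and 9.51% of all genes did.

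Counted over the set, limma called 0 of 9 genes in each of the 4 comparisons at an adjusted p of 0.05. At P2, DESeq2 called 1 in each mutant, *Bmp5* (adjusted p = 0.00582 for *Vangl2* and 0.0353 for *Ror2*), and edgeR called 0. DESeq2 called 2001 of all 17421 genes for *Vangl2* there and 794 of 17534 for *Ror2*, and edgeR called 641 of 17448 for *Vangl2*. By limma, 3.59% of all genes were called for *Vangl2* at P2, 0.563% for *Vangl2* at P5 and 0.128% for *Ror2* at P5. For *Ror2* at P2, limma and edgeR each called 0 genes, DESeq2 called 794, and 3380 had an unadjusted p under 0.05 by limma. At that unadjusted threshold 1, 2, 2 and 3 of the 9 genes passed, in the order *Vangl2* P2, *Vangl2* P5, *Ror2* P2 and *Ror2* P5, where 22.5%, 18.8%, 19.3% and 18.4% of all genes did. These were *Bmp5* in all 4, *Bmpr2* at P5 in both mutants, *Id3* for *Ror2* at P2 and *Id2* for *Ror2* at P5. For *Vangl2* 0 of the 9 genes had all mutants above all controls, where 14.6% of all genes did at P2 and 13.2% at P5. The median log2 fold change of the 9 genes was -0.16, -0.16, 0.14 and -0.01, where that of all genes lay between -0.01 and 0.00.

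Over all lungs the deviations of the target genes were correlated, but less so for *Ror2* at P5. Deviations from the group mean gave r = 0.81 for *Id1* and *Smad6* over 23 lungs (rho 0.76, 0.74 without the 2 lungs farthest in *Id1*), 0.74 for *Id1* and *Id3* and 0.72 for *Id2* and *Id3* over 24 lungs (rho 0.77 and 0.64, 0.70 and 0.66 without the 2 farthest). The other pairs lay between 0.55 and 0.65. *Bmp4* ran against *Smad6* (r = -0.71, rho -0.66, -0.69 without the 2 farthest). Of 12660 genes, 1.01% had an r with *Id1* at least as high as *Smad6*, 2.76% as high as *Id3* and 5.79% as high as *Id2*, 0.585% an r with *Id2* at least as high as *Id3*, and 0.569% an r with *Bmp4* at least as low as *Smad6*. Within tables the r of *Id1* and *Smad6* was 0.89, 0.95 and 0.89 in the first 3 and -0.24 for *Ror2* at P5, where *Smad6* has 5 lungs. In that table *Id1* and *Id2* were at -0.30, *Id3* and *Smad6* at -0.24, *Id2* and *Id3* at 0.19, *Id1* and *Id3* at 0.40 and *Id2* and *Smad6* at 0.63. That of *Bmp4* and *Smad6* was -0.34, -0.93, -0.94 and -0.44.

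**Figure D3:**
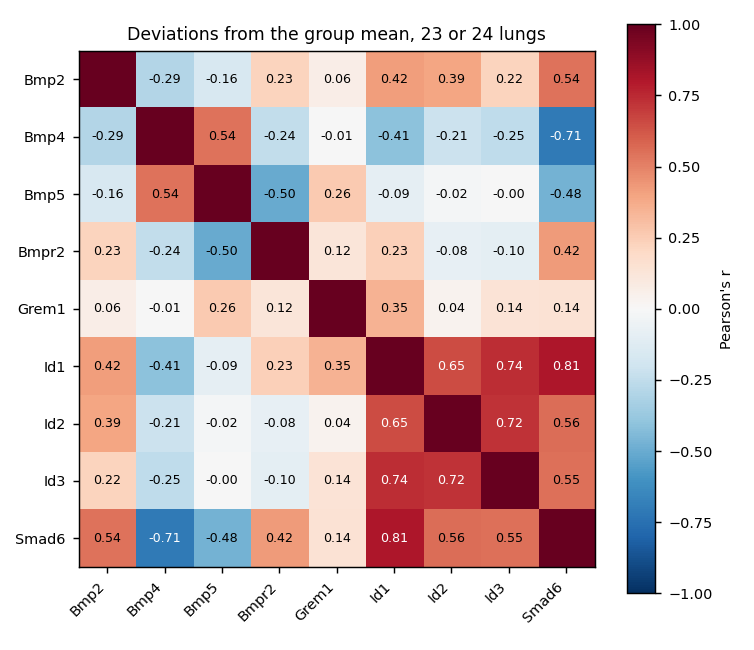
Pearson's r between the log2 deviations of each pair of genes (rows and columns) from their group means, over 24 lungs or 23 for pairs with *Bmp5* or *Smad6*. The block of *Id1*, *Id2*, *Id3* and *Smad6* holds values of 0.55 to 0.81, and *Bmp4* with *Smad6* is at -0.71.

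Genes outside the pathway shared these deviations. Those that followed *Id1* most closely were *Rps14* (r = 0.93), *Snf8* (0.93), *Scand1* (0.92), *Rps9* (0.92) and *Commd4* (0.92), of which *Rps14* and *Rps9* encode ribosomal proteins. *Id1* had r = 0.66 with the number of reads on genes over 21 lungs. With the sum of 8 alveolar type II genes it had r = 0.62 over 24 lungs, rho 0.47, 0.43 without the 2 farthest, and -0.60 among the *Ror2* lungs at P5, where 5 of the 8 genes have values. Nearest to *Bmp4* were *Cep68* (0.85), *Katnal1* (0.85), *Hoxa3* (0.84), the glucocorticoid receptor gene *Nr3c1* (0.83) and *Hoxb3* (0.83). The part of depth and of alveolar type II RNA in the shared deviations was not tested.

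**Figure D4:**
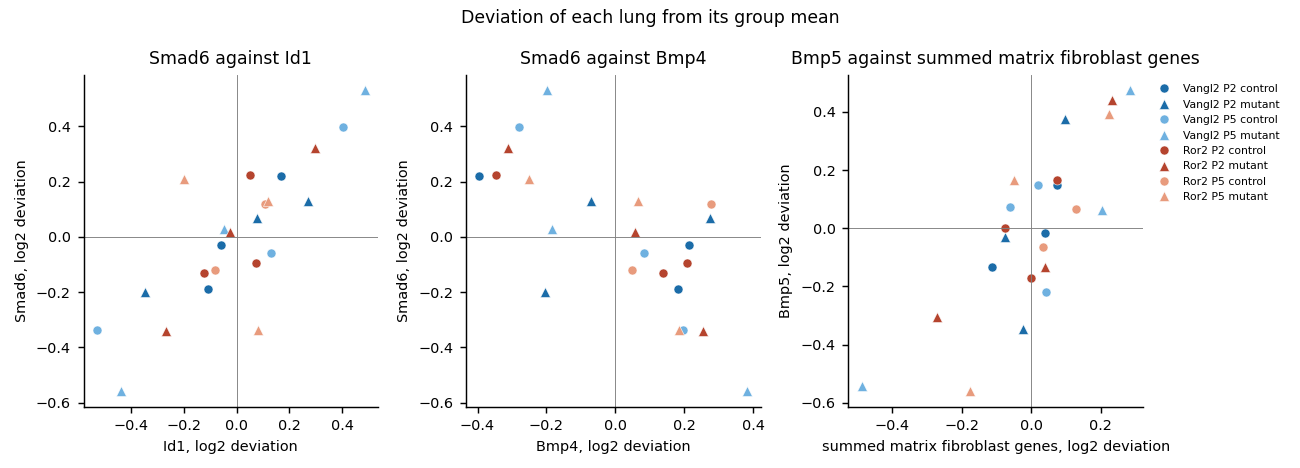
Log2 deviation of each lung from its group mean, for *Smad6* against *Id1*, *Smad6* against *Bmp4* and *Bmp5* against the summed matrix fibroblast genes (circles for controls, triangles for mutants, a colour for each comparison). The points rise in the first and last panels (r = 0.81 and 0.80) and fall in the middle one (r = -0.71).

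The rest of the pathway was read from a list of 51 further genes, of which 49 were tested in 3 comparisons and 48 for *Ror2* at P5. For *Vangl2* at P2, 0 of them were called as higher and 2 as lower, where 1.5% and 2.09% of all genes were. In the other comparisons 0 were called by limma. In the order *Vangl2* P2, *Vangl2* P5, *Ror2* P2 and *Ror2* P5, 9, 8, 8 and 10 had an unadjusted p under 0.05, where 22.5%, 18.8%, 19.3% and 18.4% of all genes did. Their median log2 fold changes were -0.01, -0.10, 0.05 and 0.04.

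The called genes were a feedback gene and a partner of the Id proteins. *Bambi*, a pseudoreceptor gene that BMPs induce and whose product damps them, was at 964, 931 and 948 normalized counts in the *Vangl2* controls at P2 and 647, 608 and 729 in the mutants, with a log2 fold change of -0.52 ± 0.11 (adjusted p = 0.0413). *Tcf3*, which encodes an E protein, was at 2592, 2761 and 2946 against 2032, 2038 and 2147, with a log2 fold change of -0.42 ± 0.09 (adjusted p = 0.0482). The groups were apart for both genes, as in this direction for 14.9% of all genes. Both calls were lost when any of 5 of the 6 lungs was left out, all but mutant replicate 3, with adjusted p over all alternatives from 0.00117 to 0.192 for *Bambi* and from 0.00194 to 0.216 for *Tcf3*. In the other comparisons *Bambi* had log2 fold changes of -0.21, -0.39 and -0.17 and *Tcf3* -0.31, -0.30 and -0.33, none of them called.

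*Tcf12*, another E protein gene, was at 4333 and 4638 normalized counts in the 2 *Ror2* controls at P5 that have values and 3279, 3683 and 3968 in the mutants. Its log2 fold changes were -0.21, -0.23, -0.21 and -0.30, and none was called. Groups were apart in all comparisons but *Vangl2* at P5, as for 14.9% of genes for *Vangl2* at P2 and 12.2% for *Ror2* at P2. For *Ror2* at P5 that order held for 18.3% of the genes with 2 controls. In the mean over the 4 comparisons *Tcf3* was at -0.34 ± 0.07 and *Tcf12* at -0.24 ± 0.05 (adjusted p = 0.00114 and 0.00225), and *Tcf4* at -0.17 ± 0.07 did not pass (adjusted p = 0.0922). By that test 15.3% of all genes were called as lower.

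Among receptors, the type I receptor gene *Bmpr1b* was at 68.1, 71.3 and 63.5 normalized counts in the *Ror2* controls at P5 and 217, 192 and 119 in the mutants. All mutants lay above all controls, as for 13.7% of genes with 3 controls. The log2 fold change was 1.32 ± 0.24 (adjusted p = 0.0880, or 0.0131 without mutant replicate 3, the lowest mutant, and up to 0.447 over all alternatives). Leaving out that lung gave 804 called genes of all 17031 tested, in place of 22. The log2 fold change of *Bmpr1b* was 0.46, 0.58 and -0.20 in the other comparisons. The type II receptor gene *Acvr2a* was at 1552, 1368 and 1251 in the *Ror2* controls at P2 and 1969, 1687 and 2332 in the mutants (0.51 ± 0.14, adjusted p = 0.203). *Rgma*, a coreceptor gene, had a log2 fold change of 0.42 ± 0.12 there (adjusted p = 0.203). Without mutant replicate 2, the lowest mutant for both, these were at adjusted p = 0.0467 and 0.0477, and DESeq2 called *Acvr2a* with all lungs kept (0.52, adjusted p = 0.0302). Of all genes, 859 of 17409 were called without that lung, and 794 of 17534 by DESeq2 with all lungs kept. Over all alternatives the adjusted p of *Acvr2a* and of *Rgma* reached 0.53.

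The Smad genes with the lowest p were at P5. *Smad1* was at 1140, 1078 and 1048 normalized counts in the *Vangl2* controls and 927, 816 and 827 in the mutants, and at 982 and 1050 against 742, 806 and 869 for *Ror2*. Groups were apart in both, as for 12.5% of genes for *Vangl2* and 18.3% of those with 2 controls for *Ror2*. The log2 fold changes were -0.35 ± 0.12 and -0.34 ± 0.10 (adjusted p = 0.195 and 0.174). At P2 the groups overlapped, with log2 fold changes of 0.09 for *Vangl2* and -0.10 for *Ror2*. *Smad9* was at 411, 466 and 466 in the *Ror2* controls at P5 and 702, 579 and 576 in the mutants (0.46 ± 0.11, adjusted p = 0.126). The ligand gene *Bmp6* was at 1460, 1461 and 1265 against 1677, 1855 and 1723 in the same lungs (0.33 ± 0.08, adjusted p = 0.134).

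The remaining genes with the lowest p were antagonists, a target and a low ligand. For *Vangl2* at P5, *Bmp8a* had a log2 fold change of 1.95 ± 0.64 and reached 8.95 normalized counts at most, and *Sostdc1* had 1.93 ± 0.69 and reached 23.2. *Nbl1* (0.34 ± 0.11) and *Fstl3* (0.53 ± 0.20), antagonists of BMPs and activins, had all mutants above all controls for *Vangl2* at P2, as did 14.6% of all genes. *Hey1*, a target of Notch and BMP signals, had 0.61 ± 0.20 for *Ror2* at P2, and the antagonist gene *Chrdl1*, at 37.3 normalized counts or less, -1.39 ± 0.48. None of these passed the threshold, with adjusted p from 0.131 to 0.215. *Hey1* passed without mutant replicate 2, its lowest mutant (0.0398), where 859 of all 17409 genes passed, and reached 0.532 over all alternatives.

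**Figure D5:**
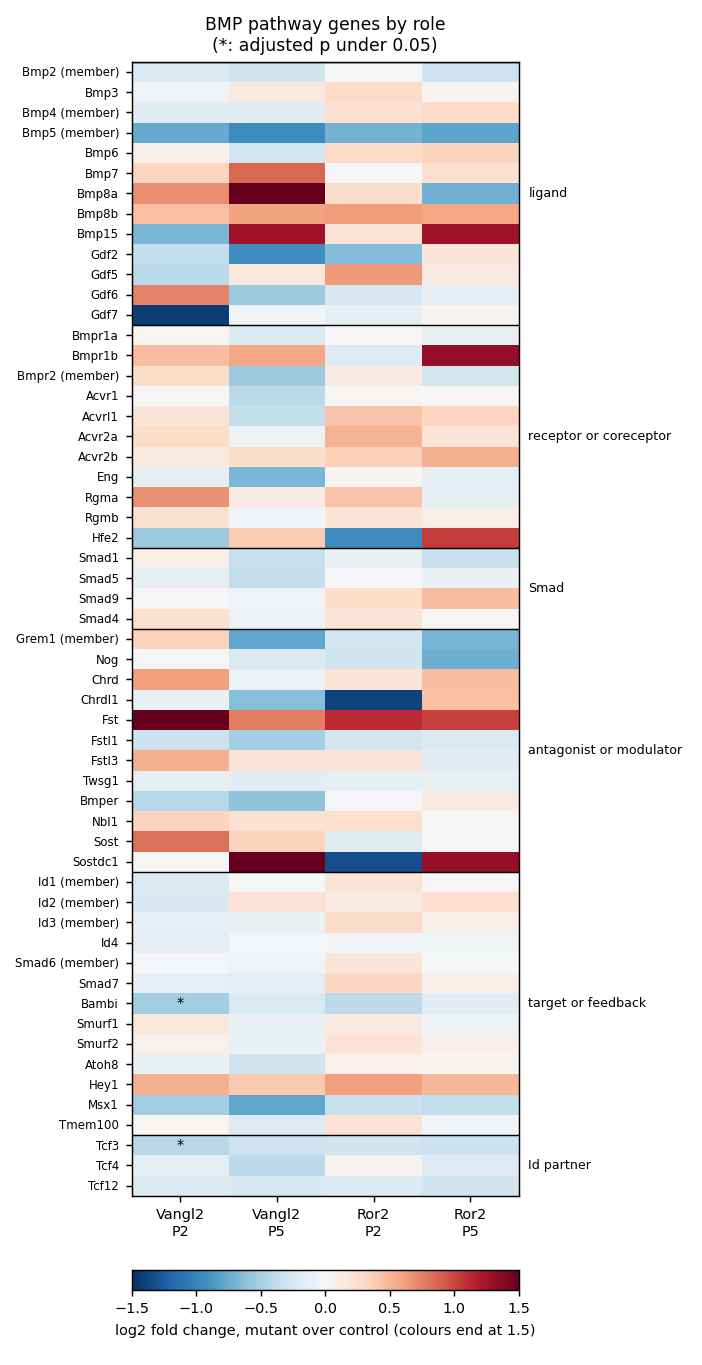
Log2 fold changes, mutant over control, of 56 genes of the pathway tested in all 4 comparisons (columns), ordered by role, with colours ending at 1.5 and asterisks for an adjusted p under 0.05. *Bmp5* is lower in every column, and the only asterisks are those of *Bambi* and *Tcf3* for *Vangl2* at P2.

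In the mean over the 4 comparisons, 5 of 48 pathway genes were called as higher and 7 as lower, where 15.5% and 15.3% of all genes were. The genes called higher were *Bmp8b* (mean log2 fold change 0.56), *Bmpr1b* (0.54), *Fst* (1.16), *Hey1* (0.51) and *Nbl1* (0.21), where *Fst* encodes the activin and BMP antagonist follistatin. Groups overlapped for *Fst* in every comparison. Its mutants differed widely, at 379, 143 and 57.0 normalized counts for *Vangl2* at P2 and 122, 72.1 and 493 for *Ror2* at P2. *Bmp8b* reached 63.0 normalized counts at most. Called lower were *Bambi* (-0.33), *Fstl1* (-0.33), *Smad1* (-0.17), *Smad5* (-0.15), *Tcf3* (-0.34), *Tcf12* (-0.24) and *Twsg1* (-0.15). *Fstl1* encodes a BMP antagonist secreted by mesenchyme, and *Twsg1* a modulator of BMP and chordin. The shares called were near or below those of all genes.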

How the data were processed

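RNA from the left lung lobe (TRIzol and RNeasy) was sequenced by the authors on Illumina HiSeq instruments. The submitters' processing notes name DESeq2 and mm10, and the aligner is not given in the sources used here. The authors deposited 1 table of 23420 genes for each of the 4 comparisons, whose signal values are read counts scaled by the size factor of the lung. The log2 fold changes, test score and p-values that the authors deposited beside them, and their mean over the 6 lungs, are their own comparisons and were not used.

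Limma (version 3.58.1, R version 4.3.3) was run with a trend on log2(normalized count + 1) for each comparison, so fold changes of low genes are understated. Genes at 1 or more in at least 3 lungs were tested, with Benjamini-Hochberg adjustment over all of these and a threshold of 0.05. Differences between effects were fitted over the 12 lungs of 2 tables. Whole reads were recovered in 21 lungs (values within 0.02 of a whole number), for edgeR (version 4.0.16) and DESeq2 (version 1.42.0) at P2, an alternative set up for all tables. The code was tested on simulated data. Recovered lungs held at least 13823693 reads on genes, or 16178031 without control replicate 1 of *Ror2* at P5, and intervals reflect the spread between lungs.

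Lungs with 1 replicate number in common deviated alike most for *Vangl2* at P5, where their deviations had r = 0.38, 0.34 and 0.24 over 17410 genes. The pairing comes from the data, since the labels give only the numbers.

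Named beside the 9 genes are the targeted genes, those of the pathway list past the threshold in a comparison or with the 4 lowest p in one, and the 5 genes most like *Id1* and *Bmp4* among 12653 with a mean of at least 50 in every table. The 9 genes, the pathway list and the marker lists were chosen with earlier results of these data known. *Tcf12*, *Tcf4*, the fibroblast genes, the neighbours of *Bmp5*, the genes of the mean over the 4 comparisons and the motifs were chosen after values or sequences were seen. The values of 1 gene of the pathway list are not reported here. Levels per kilobase use the exon union of GENCODE vM21.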

Additional observations from a re-analysis of the deposited data

How the results depend on the processing

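*Bmp5* was lower in the mutants in 52 of 53 alternatives over the 4 comparisons and had an adjusted p under 0.05 in 6. The exception kept control replicate 1 of *Ror2* at P5 as deposited, which gave log2 fold changes of 3.09 for *Bmp5*, 3.81 for *Smad6* and 2.99 for *Smad1* and 1 called gene in all, in place of 22. The replicate block called 1 gene of the set, *Bmp5*, in each *Vangl2* comparison (adjusted p = 0.0478 at P2, 0.0381 at P5). It gave 795, 1558, 1 and 1 called genes in the order *Vangl2* P2, *Vangl2* P5, *Ror2* P2 and *Ror2* P5, in place of 626, 98, 0 and 22. Outside *Vangl2* at P5 the r of same-numbered lungs was lower (-0.01 to 0.09 for *Vangl2* P2, 0.03 to 0.21 for *Ror2* P2 and -0.09 to 0.04 for *Ror2* P5). The labels do not say whether lungs of 1 number are paired. The block turned the *Bmp5* effect of *Ror2* at P5 minus that at P2 from -0.08 to 0.20, moved that of *Ror2* at P5 from -0.79 to -0.50 and ended the calls of *Bambi* and *Tcf3* (adjusted p = 0.0564 and 0.0581). DESeq2 called *Bmp5* as the 1 gene of the set at P2 for *Vangl2* (0.00582) and for *Ror2* (0.0353), with 2001 and 794 called genes in all, and edgeR called it in neither (0.0671 and 0.213). Neither tool was run at P5, where 3 controls have a size factor so close to 1 that whole reads could not be told from rounded values. Fitting all 12 lungs of an age together gave 45, 955 and 3 called genes for *Vangl2* P2, *Vangl2* P5 and *Ror2* P5. Small effects changed sign under TMM scaling (*Id1*, to 0.012 for *Vangl2* P5 and -0.00079 for *Ror2* P5) and under edgeR and DESeq2 (*Bmp2* for *Ror2* P2, to 0.021 and 0.028). The causes were not tested.

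With 1 lung left out, the genes called were 1 to 2333 for *Vangl2* P2, 0 to 54 for *Vangl2* P5, 0 to 859 for *Ror2* P2, 0 to 804 for *Ror2* P5, 0 to 4 for *Vangl2* minus *Ror2* at P5 and 4352 to 5663 for the mean of the 4 effects. Of the set, 0 to 1 were called for *Vangl2* P2 (1 without mutant replicate 3) and for *Ror2* P2 (1 without mutant replicate 2), and 1 to 2 in the mean. Log2 fold changes that took both signs ranged from -0.21 to 0.011 (*Id3*) and -0.13 to 0.078 (*Smad6*) for *Vangl2* P2, from -0.27 to 0.22 (*Id1*) and -0.31 to 0.23 (*Smad6*) for *Vangl2* P5, from -0.32 to 0.16 (*Bmp2*) and -1.19 to 0.45 (*Grem1*) for *Ror2* P2, and from -1.17 to 0.20 (*Grem1*), -0.054 to 0.11 (*Id1*), -0.011 to 0.20 (*Id3*) and -0.13 to 0.16 (*Smad6*) for *Ror2* P5. Differences between effects of *Bmp5* ranged from -0.24 to 0.17 and -0.44 to 0.11 (*Vangl2* minus *Ror2* at P2 and P5) and from -0.43 to 0.082 and -0.27 to 0.20 (P5 minus P2 for *Vangl2* and *Ror2*).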
